A study of Mus musculus with 18 samples.

Results

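The genes described here encode 6 ion channels linked to the sensing of mechanical force, Piezo1, Piezo2, Trpv4, Trpm7, Trpc1 and Kcnk2. They were chosen by name and were found by gene symbol among the 49184 mouse genes to which the deposited transcripts were summed, and all 6 passed the filter on low counts. Gene expression was measured by sequencing of ribosome-depleted total RNA in 18 libraries of knee cartilage from a mouse model of post-traumatic osteoarthritis, in which the anterior cruciate ligament (ACL) is ruptured by a single mechanical load without surgery. The question of the comparison was how cartilage gene expression responds early to this injury. All mice were wild type, labelled C57bl6 and described in the study's methods as male C57Bl/6J mice of 12 weeks. The ACL of the right knee was ruptured under isoflurane, with buprenorphine given for pain. Cartilage was taken 1 or 7 days later from the right knee (day 1 injured and day 7 injured, 3 libraries each) and from the unloaded left knee of injured mice (day 1 contralateral and day 7 contralateral, 3 libraries each). A further 6 libraries came from naïve mice, which were not injured and are labelled as day 7 controls. Each library is a pool of mice, 2 per library at day 1 and 4 at day 7 by the study's scheme of the experiment, with 6 naïve mice in all, whereas the deposited design text gives 4 for each library. The tissue was the cartilage cap of the femoral condyles by the methods and of the medial knee by the design text. The knees of each side were pooled separately, so injured and contralateral libraries of a day can share mice, and if each naïve library is a pool, the 6 naïve libraries from 6 mice must share some as well. The labels do not say which libraries share mice. The study's own model allowed for shared pools, whereas the p-values and SDs here treat libraries as independent, and the number of independent naïve samples may be below 6. The total of estimated counts ranged from 16074762 to 41794005 per library, with a median of 25465706.

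Mechanosensitive channels open when the membrane is stretched, when the cell swells or when a ligand made under load binds. PIEZO1 and PIEZO2 are large stretch-gated cation channels, and both have been described in chondrocytes, where the calcium they let in during strong compression is studied as a route of injury. TRPV4 is a calcium-permeable channel that responds to osmotic change and moderate load, TRPM7 joins a magnesium- and calcium-permeable pore to a kinase, TRPC1 is a subunit of canonical TRP channels that takes part in calcium entry, and KCNK2 (TREK-1) is a potassium channel opened by stretch, which lowers excitability. PIEZO2 is best known from touch receptors and sensory neurons.

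The labels call the cells chondrocytes. All 12 chondrocyte markers tested were detected, with a summed level of 5883 ± 1249 CPM (SD, n = 6) in naïve libraries, of which the cartilage collagen gene Col2a1 made up 3240 ± 886. CPM here are estimated counts relative to the library size after TMM normalisation, which adjusts for differences in library composition. The libraries also held RNA of other tissues. In naïve libraries the summed erythroid markers reached 34649 ± 3951 CPM, the neutrophil markers 12064 ± 1912 CPM and the skeletal muscle markers 6605 ± 2569 CPM. In such bulk samples, fewer cells of a type and less RNA per cell cannot be told apart. Day 7 contralateral replicate 1 stood apart from the others, since 10 genes took 42.5% of its counts, against 16.6% to 29.8% in the other 17 libraries, and the channels' tests of day 7 injured against its group, and of the difference between the days, are given with and without it. Naïve replicate 5 held the highest Piezo1 and Piezo2 levels among the naïve libraries.

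In naïve cartilage the channels differed widely in level. Levels of different genes were compared as TPM, which divides by transcript length, within each library. Trpm7 had the highest level, at 10.7 ± 1.79 TPM (SD, n = 6), followed by Piezo1 at 8.39 ± 2.01, Trpv4 at 2.68 ± 0.621, Kcnk2 at 1.38 ± 0.289, Piezo2 at 1.03 ± 0.202 and Trpc1 at 0.539 ± 0.121. This order held in 5 of the 6 naïve libraries, and in the remaining one Piezo2 lay above Kcnk2. The ranges of Trpm7 and Piezo1, and those of Kcnk2 and Piezo2, overlapped between neighbours, while the other neighbours in the order were separate. The same order was found in all 3 day 1 contralateral, 2 of 3 day 1 injured and 2 of 3 day 7 contralateral libraries.

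In all 3 day 7 injured libraries the order was another one. Piezo1 stood first at 11.6 ± 2.48 TPM, Trpm7 second at 9.01 ± 1.39, and Piezo2 next at 6.11 ± 1.22, above Trpv4 at 2.94 ± 0.424, Kcnk2 at 1.32 ± 0.276 and Trpc1 at 0.951 ± 0.196. The ranges of Piezo1 and Trpm7 overlapped, and the ranges of the other neighbours did not. The level of Piezo2 relative to Piezo1, a ratio within each library that no scaling between libraries alters, was 0.529 ± 0.0193 in day 7 injured libraries (n = 3) and lay between 0.516 and 0.551. It was 0.125 ± 0.0249 in naïve libraries and lay between 0.0561 and 0.162 in the 15 libraries outside the day 7 injured group. Short non-coding transcripts add to these TPM sums, but over protein-coding transcripts alone the orders of the naïve and day 7 injured means were the same. In day 1 injured libraries the mean of Piezo1 was then also above that of Trpm7 (11.79 against 11.74 TPM), so Piezo1 stood first there as well.

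**Figure D1:**
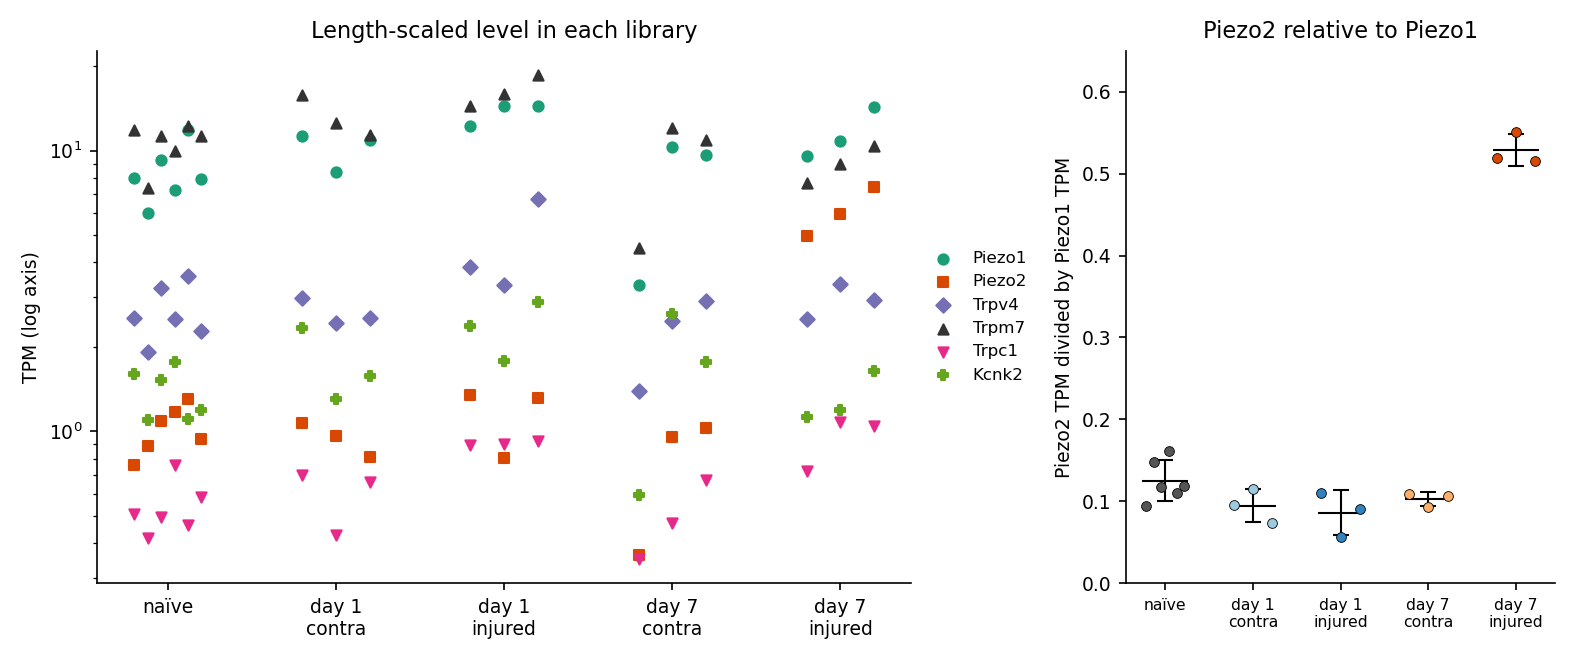
Left, TPM (log axis) of the 6 channel genes in each library, 1 symbol per gene, by group. Right, Piezo2 TPM divided by Piezo1 TPM in each library with mean and SD, which lies between 0.516 and 0.551 in the day 7 injured libraries and does not exceed 0.162 elsewhere.

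Of the 6 genes, 3 were called higher in day 7 injured than in naïve cartilage and none lower, where a call needs an FDR of at most 0.05 and a change of at least 1.5-fold in edgeR's quasi-likelihood test. Over all 21129 genes tested, 10.4% were called higher and 16.6% in either direction. The called channels were Piezo1, Piezo2 and Trpc1. The same 3 genes were called against day 7 contralateral cartilage, where 9.33% of all genes were called higher, and against day 1 injured cartilage, where the share was 9.04%. In the last comparison the log2 differences of the other channels were 0.32 for Trpv4 (FDR 0.139), 0.16 for Trpm7 (FDR 0.0742) and -0.08 for Kcnk2 (FDR 0.777). These comparisons share the 3 day 7 injured libraries, so their values are not separate evidence. The median log2 fold change of the 6 genes against naïve was 0.65, beside -0.04 over all genes tested.

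**Figure D2:**
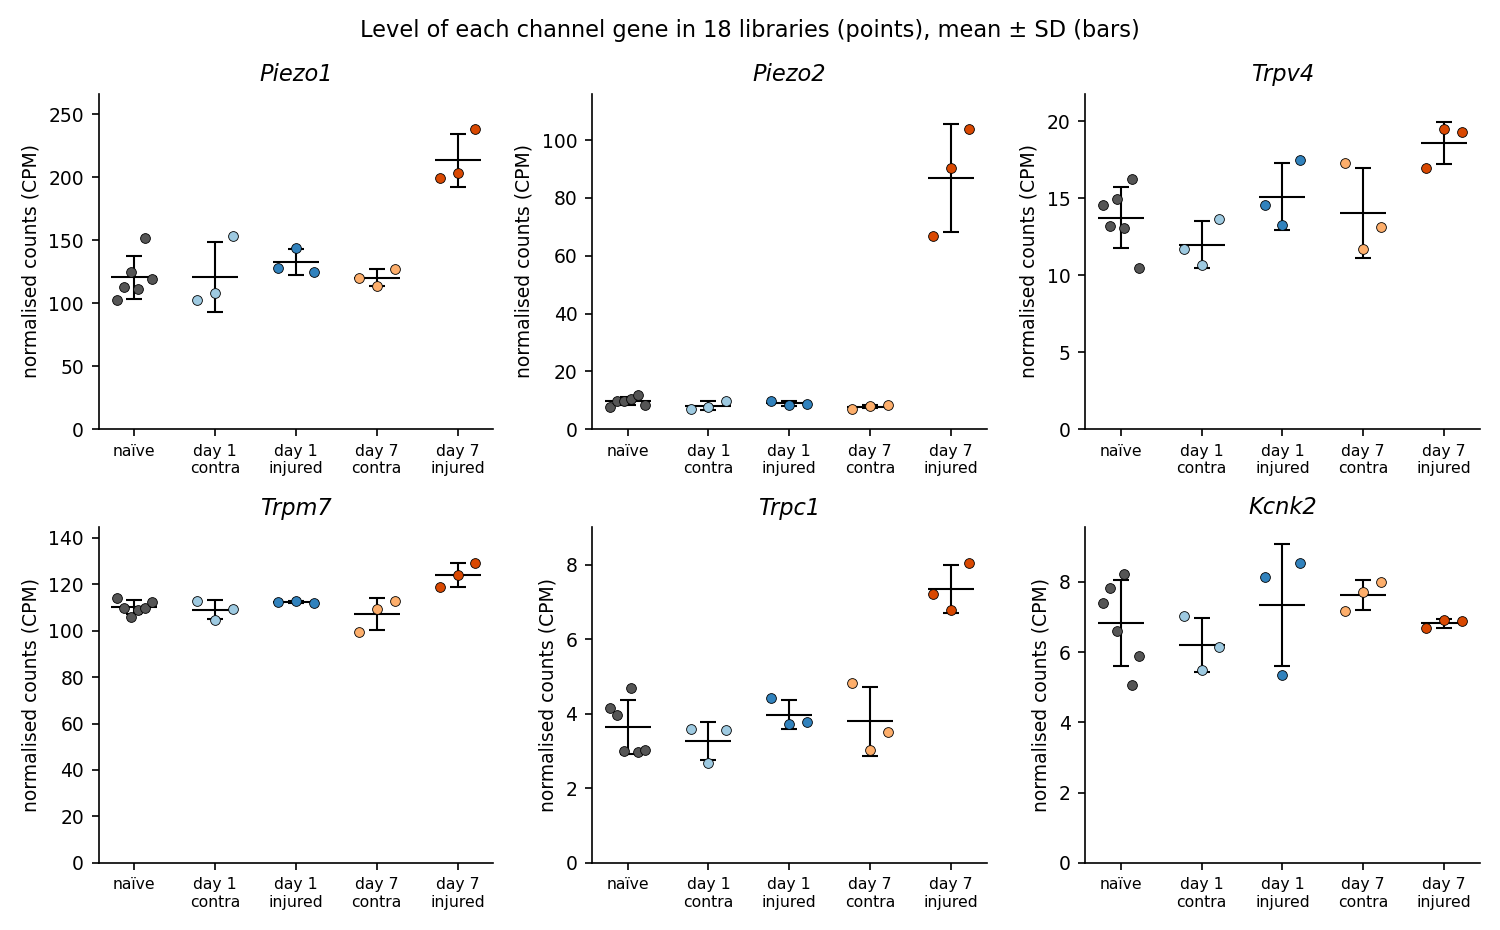
CPM after TMM normalisation of each channel gene in the 18 libraries, by group; points are libraries, horizontal bars the mean and error bars the SD, and axes start at 0. Piezo1, Piezo2, Trpm7 and Trpc1 have all 3 day 7 injured libraries above the other 15.

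Piezo2 changed most among the channels. The gene lies on chromosome 18 at 63010213 to 63387183 on the minus strand (GENCODE annotation, GRCm38). Its level was 66.8, 90.4 and 104 CPM in the 3 day 7 injured libraries, which rest on 1426 to 2242 counts. In naïve libraries the lowest level was 7.80 CPM, the median 9.67 and the highest 11.9. It was 7.09, 8.16 and 8.28 CPM in day 7 contralateral libraries, 8.42, 8.58 and 9.79 in day 1 injured libraries and 6.98, 7.80 and 9.77 in day 1 contralateral libraries. Every day 7 injured library thus lay far above all 15 others, which differed little among themselves.

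The fitted difference in Piezo2 was 9.08-fold against naïve (log2 fold change 3.18 ± 0.15, SE; FDR 1.81e-09). It was 11.04-fold against day 7 contralateral (log2 3.46 ± 0.19; FDR 7.74e-09) and 9.85-fold against day 1 injured (log2 3.30 ± 0.19; FDR 6.45e-08). Without day 7 contralateral replicate 1 the log2 difference from that group was 3.42. Among the 2207 genes called higher against naïve, Piezo2 ranked 54th by fold change.

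Piezo1 rose to a smaller degree from a higher level. The gene lies on chromosome 8 at 122481698 to 122551329, minus strand, and overlaps Ctu2 and the predicted gene Gm20388 on the opposite strand. The library kit keeps the strand of the RNA, but whether the pseudo-alignment used it is not given in the sources used here, so some reads of the overlap could be assigned to either gene. Mean levels over all libraries were 9.95 CPM for Ctu2 and 49.4 CPM for Gm20388. The level of Piezo1 was 200, 203 and 238 CPM in day 7 injured libraries. It ranged from 102.9 to 152 CPM in naïve libraries with a median of 116, and was 114, 120 and 128 CPM in day 7 contralateral, 125, 128 and 144 in day 1 injured and 102, 108 and 153 in day 1 contralateral libraries. On this scale the day 7 injured libraries did not overlap with any other group. As deposited TPM, which are not adjusted for library composition, they did: Piezo1 was 9.58 to 14.35 TPM in day 7 injured, 12.2 to 14.4 in day 1 injured and up to 11.9 in naïve libraries, so that the day 1 injured mean, 13.7, was above the day 7 injured mean, 11.6.

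The difference in Piezo1 was 1.79-fold against naïve (log2 0.84 ± 0.13; FDR 2.08e-04), 1.77-fold against day 7 contralateral (log2 0.83 ± 0.15; FDR 7.80e-04; log2 0.84 and FDR 0.00286 without its replicate 1) and 1.63-fold against day 1 injured (log2 0.71 ± 0.16; FDR 0.00483). The 95% confidence interval of the log2 change against naïve, 0.56 to 1.125, did not reach that of Piezo2, 2.87 to 3.49. Against day 1 injured the call of Piezo1 was lost when only protein-coding transcripts were counted, at a log2 difference of 0.57 that fell just under the fold limit.

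Trpc1 was the lowest of the channels and also rose. It lies on chromosome 9 at 95705082 to 95750375, minus strand. Its level was 6.78, 7.22 and 8.05 CPM in day 7 injured libraries, which rest on 107 to 174 counts. Naïve libraries ranged from 2.98 to 4.69 CPM with a median of 3.50. The values were 3.03, 3.51 and 4.83 CPM in day 7 contralateral, 3.72, 3.77 and 4.43 in day 1 injured and 2.69, 3.55 and 3.58 in day 1 contralateral libraries. In CPM all 3 day 7 injured libraries lay above the other 15, of which day 7 contralateral replicate 1 was the highest. As deposited TPM, day 7 injured (0.726 to 1.083, mean 0.951) and day 1 injured libraries (0.891 to 0.923, mean 0.906) overlapped, and the highest naïve library, at 0.759, lay above the lowest day 7 injured one.

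Trpc1 was 2.05-fold higher in day 7 injured than in naïve cartilage (log2 1.04 ± 0.16; FDR 1.67e-04), 1.96-fold higher than in day 7 contralateral (log2 0.97 ± 0.21; FDR 0.00316) and 1.87-fold higher than in day 1 injured cartilage (log2 0.91 ± 0.19; FDR 0.00294). Without day 7 contralateral replicate 1 the log2 difference from that group was 1.19.

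Piezo1 and Trpc1 were both called higher in day 7 injured cartilage. Pearson's correlation of their log2 CPM was 0.73 over the 18 libraries and -0.13 over the 15 outside that group. Whether they share control was not tested. The 250 bases before the RefSeq start of each are shown to let their letters be compared. They are RefSeq sequence of build GRCm38.p6, 5′ to 3′ along the gene on the minus strand, from chr8:122551330-122551579 and chr9:95750349-95750598. The stretch of Trpc1 reaches into the gene as GENCODE places it, since RefSeq puts its start further in. Capitals mark the GC box GGGCGG or its reverse complement CCGCCC.
Piezo1: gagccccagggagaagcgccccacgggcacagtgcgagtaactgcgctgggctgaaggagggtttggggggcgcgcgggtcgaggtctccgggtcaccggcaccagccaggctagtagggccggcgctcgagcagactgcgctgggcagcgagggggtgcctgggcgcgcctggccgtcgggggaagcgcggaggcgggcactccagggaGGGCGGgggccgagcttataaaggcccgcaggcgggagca
Trpc1: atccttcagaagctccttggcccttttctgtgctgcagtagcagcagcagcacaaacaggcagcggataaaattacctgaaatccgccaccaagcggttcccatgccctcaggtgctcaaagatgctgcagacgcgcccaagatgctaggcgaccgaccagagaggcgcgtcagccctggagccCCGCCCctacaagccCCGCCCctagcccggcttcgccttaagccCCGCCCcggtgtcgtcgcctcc
The GC box was found 1 time before Piezo1 and 3 times before Trpc1, and 32.7% of the 32851 stretches of this length before RefSeq gene starts hold it on either strand. The AP-1 motif TGANTCA, the TEAD motif GGAATG and the NFAT motif GGAAAA, searched on both strands, were not in either stretch. They occur in 6.75%, 12.6% and 20.4% of all stretches. GC content was 74.0% before Piezo1 and 62.8% before Trpc1, beside a median of 52.4% over all stretches.

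Trpv4 and Trpm7 differed from naïve at an FDR of at most 0.05 but by less than 1.5-fold, so that 5 of the 6 channels passed the FDR limit alone, which 29.8% of all genes passed in either direction. Trpv4, on chromosome 5 at 114622152 to 114658421, had 16.98, 19.3 and 19.5 CPM in day 7 injured libraries and 10.48 to 16.2 CPM in naïve libraries with a median of 13.9. The groups did not overlap, but the highest day 1 injured and day 7 contralateral libraries reached 17.5 and 17.3 CPM. As deposited TPM, day 7 injured (2.51 to 3.36) and naïve libraries (1.92 to 3.58) overlapped, and the day 1 injured mean, 4.63, was above the day 7 injured mean, 2.94. The difference from naïve was 1.37-fold (log2 0.45 ± 0.13; FDR 0.0173), with an FDR of 0.0691 without day 7 injured replicate 2 and 0.0696 without replicate 3. Against day 7 contralateral it was 1.33-fold with an FDR of 0.104. Without day 7 contralateral replicate 1, the highest Trpv4 library of its group, that difference was 0.60 on the log2 scale with an FDR of 0.0209 and met both limits.

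Trpm7, on chromosome 2 at 126791565 to 126876230, was the steadiest of the channels, with a coefficient of variation of 3.58% over the 15 libraries outside the day 7 injured group. Its level was 118.8, 124 and 129 CPM in day 7 injured libraries and 99.4 to 114 CPM in the other 15, which they exceeded throughout. The difference from naïve was 1.14-fold (log2 0.19 ± 0.05; FDR 0.0159), with an FDR of 0.0544 without day 7 injured replicate 2 and 0.0834 without replicate 3. Against day 7 contralateral it was 0.21 on the log2 scale (FDR 0.0514), or 0.18 without that group's replicate 1 (FDR 0.0750). The direction depended on the scale, since the deposited TPM of Trpm7 were lower in day 7 injured libraries (mean 9.01) than in naïve (10.7) and day 1 injured libraries (16.3). The difference from naïve in the count test was 0.09 on the log2 scale with an FDR of 0.247 over protein-coding transcripts, and 0.10 with an FDR of 0.342 when transcript length was taken into account.

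No difference was detected for Kcnk2, on chromosome 1 at 189207930 to 189402273. The day 7 injured libraries had 6.68, 6.89 and 6.91 CPM, inside the range of naïve libraries, 5.05 to 8.23 CPM with a median of 7.00. The log2 difference from naïve was 0.02 with a 95% confidence interval of -0.34 to 0.38, and that from day 7 contralateral was -0.16 (-0.57 to 0.24), or -0.18 without its replicate 1. Changes within the first interval are not excluded by these libraries.

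At day 1 none of the channels was called by edgeR in injured against naïve or against day 1 contralateral cartilage, and none in contralateral cartilage of either day against naïve. Of all genes, 0% were called in these 4 comparisons, and at an unadjusted p under 0.05 the numbers of genes were 959, 1383, 3220 (day 7 contralateral) and 554 (day 1 contralateral). DESeq2 called 15, 0, 31 and 2 genes and limma-voom 0 in each, with none of the channels among them. In day 1 injured against naïve, however, DESeq2 gave an adjusted p for only 1467 genes and for 2 of the 6 channels, Piezo1 and Trpm7, so its calls there say nothing of the other channels. Trpv4 was the only channel with an unadjusted edgeR p under 0.05, against day 1 contralateral (1.25-fold, log2 0.32 ± 0.15; FDR 0.755). The 95% confidence intervals of the day 1 injured against naïve differences were -0.45 to 0.21 for Piezo2, -0.15 to 0.42 for Piezo1 and -0.22 to 0.48 for Trpc1 on the log2 scale. They were -0.15 to 0.41 for Trpv4, -0.09 to 0.14 for Trpm7 and -0.25 to 0.46 for Kcnk2. The day 7 injured against naïve differences lay above these intervals for Piezo2 (3.18), Trpc1 (1.04) and Piezo1 (0.84). For Trpv4 (0.45) and Trpm7 (0.19) they lay just above, and for Kcnk2 (0.02) inside.

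Whether the injury effect differed between the days was tested as the difference of differences, injured minus contralateral at day 7 less the same at day 1. Over all genes 3.53% had a larger effect at day 7 by this test. Among the channels Piezo2 alone was called, with a log2 difference of 3.34 ± 0.25 (FDR 1.04e-06), or 3.31 without day 7 contralateral replicate 1. For Piezo1 the value was 0.70 ± 0.21 (FDR 0.0802) and for Trpc1 0.69 ± 0.29 (FDR 0.236). Without that library they were 0.72 (FDR 0.0909) and 0.91 (FDR 0.0744). A difference between days in the injury effect on these genes was thus not established by this test. Piezo1 passed both limits with DESeq2 (log2 0.68, FDR 0.0440), and with edgeR when naïve replicate 5 was left out (log2 0.70, FDR 0.0473). The values were 0.17 for Trpm7, 0.08 for Trpv4 and -0.40 for Kcnk2, or 0.14, 0.28 and -0.42 without that library, and none of these passed the FDR limit.

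**Figure D3:**
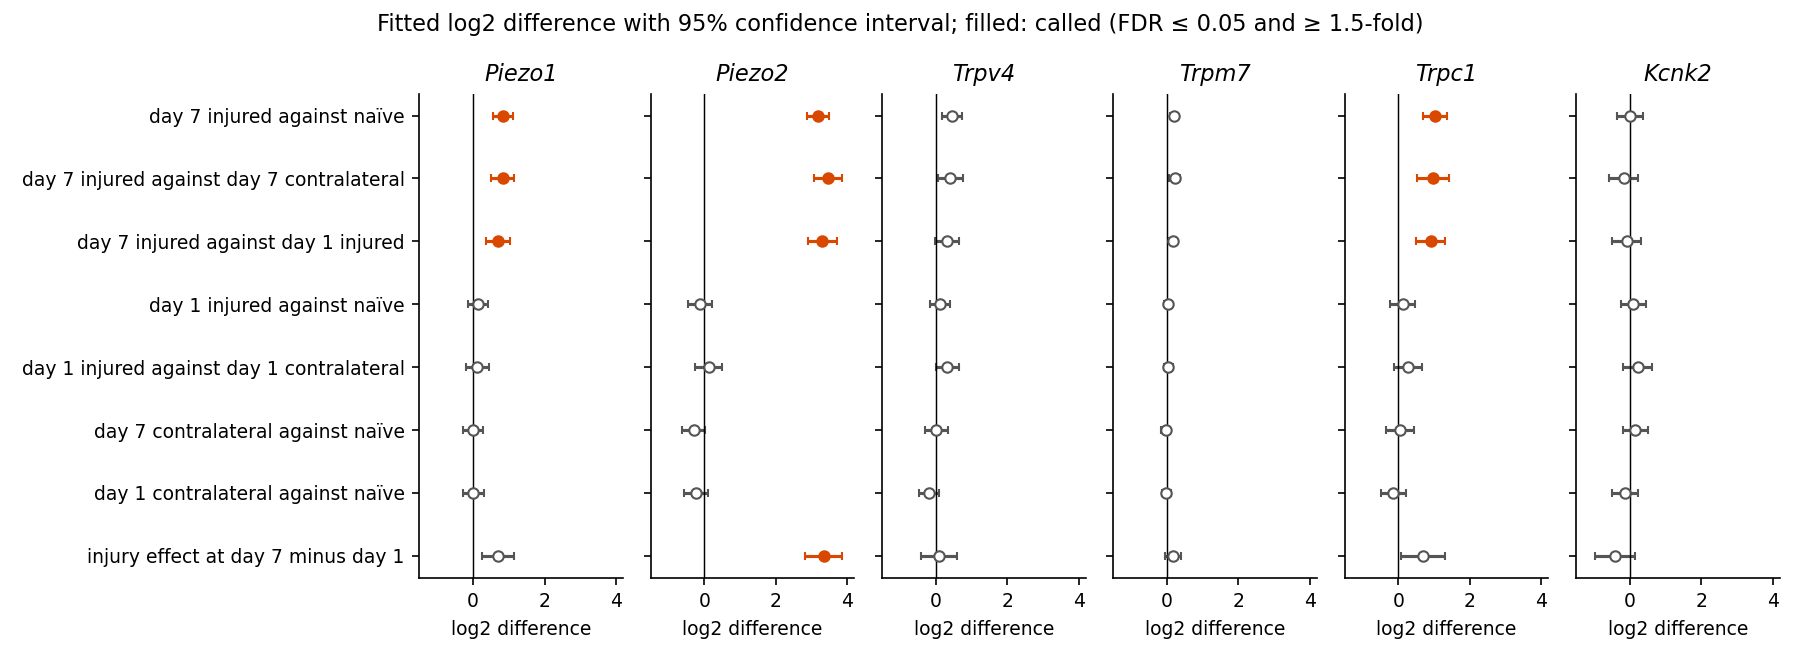
Fitted log2 difference (point) and its 95% confidence interval (bar) for each channel in the 8 comparisons; filled points are called. The intervals of Piezo2 in the comparisons that include day 7 injured cartilage start at 2.818 or higher, while those of Kcnk2 include 0 throughout.

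The counts of each channel came mainly from protein-coding transcripts, except those of Kcnk2 in day 1 injured replicate 2, where they held 46.2%. For Piezo2, coding transcripts held 86.6% ± 6.53 of the counts in naïve and 91.9% ± 1.79 in day 7 injured libraries, and 2 transcripts, Piezo2-202 and Piezo2-209, carried most of the gene's counts in these groups on average. In day 7 contralateral libraries they held 24.9% and 13.6%, each with 0 in at least 1 library, and Piezo2-215, also coding, held 35.3%. Piezo2-202, of 54 exons, held 38.5% of the gene's counts in naïve and 43.2% in day 7 injured libraries. Piezo2-209, of 52 exons, held 34.6% and 42.5%. Both were higher in day 7 injured libraries, at 1.499 ± 0.522 and 1.84 ± 0.639 TPM, than in naïve libraries, at 0.175 ± 0.0219 and 0.207 ± 0.0972 TPM. These are estimates from reads that the transcripts share, and no test was made on them.

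Piezo1-209 held 83.7% of Piezo1 counts in naïve and 83.3% in day 7 injured libraries, and Trpm7-202 held 80.0% and 77.4% of Trpm7 counts. Trpv4 was divided between Trpv4-201 (44.6% and 50.4%) and Trpv4-205 (40.4% and 38.5%). Kcnk2 was the least settled. Its coding share was 79.5% ± 16.03 in naïve, 57.1% ± 12.2 in day 1 injured and 81.9% ± 2.79 in day 7 injured libraries, and the transcript Kcnk2-203, annotated as a target of nonsense-mediated decay, held 42.2% of its counts at day 1 after injury, 20.5% in naïve libraries, where it ranged from 0 to 39.9%, and 33.3% in day 7 contralateral libraries, whose coding share was 66.1%.

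Around the channels, 114 genes of 7 groups were read in the same fit. In day 7 injured against naïve cartilage, 96 passed the filter on low counts, 16 were called higher and 2 lower, or 18.8% beside 16.6% of all genes. Their median log2 fold change was 0.09. A share this close to the background says little about the groups, and each is described by its members.

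Among the other TRP channels, 18 of 25 were tested, 3 were called higher and 2 lower, with a median of -0.05. Pkd2, polycystin 2, a cation channel of the primary cilium, rose from 55.1 ± 7.32 to 216 ± 40.1 CPM, or 3.98-fold (FDR 1.90e-08). Trpm6, the close relative of Trpm7 known for magnesium uptake, rose 4.17-fold from 1.67 ± 0.904 CPM (FDR 0.00265). Trpm4, a channel for monovalent cations opened by calcium, rose 1.73-fold (FDR 9.55e-04). Trpm2, a cation channel opened by ADP-ribose and the TRP gene with the highest naïve TPM in its group, fell from 44.7 ± 6.47 to 28.8 ± 3.23 CPM, and its FDR was 8.39e-04. Trpv3 was called lower as well, but with at most 12 counts in any library. Neither gene was called without naïve replicate 1 or without day 7 injured replicate 2.

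Pkd1, the large receptor-like partner of polycystin 2, was in the group of channel partners and rose from 189 ± 22.4 to 587 ± 63.9 CPM, or 3.14-fold (FDR 2.94e-08). Of 9 partners tested, 3 were called higher and none lower, with a median of 0.10. Cav1, which forms the caveolae that flatten under stretch, rose 1.92-fold (FDR 1.67e-04), and Mdfic, whose protein is an auxiliary subunit of PIEZO channels, rose 1.62-fold (FDR 0.00167). Stom, stomatin, had the highest naïve TPM in the group and was 0.794-fold its naïve level, within the fold limit.

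In the calmodulin, calcineurin and NFAT group, which relays a rise in calcium to transcription, 5 of 18 genes were called higher and none lower, with a median of 0.27. Nfatc4 rose 4.68-fold from 11.2 ± 1.53 to 51.8 ± 8.06 CPM (FDR 2.15e-08) and Nfatc2 rose 2.75-fold (FDR 4.47e-06). Rcan1, an inhibitor of calcineurin that NFAT itself induces, rose 2.99-fold (FDR 1.96e-04). Calm2, a calmodulin gene and the most abundant of the group by TPM, rose 1.52-fold (FDR 1.03e-05), and Rcan3 rose 1.59-fold. With coding transcripts alone, 3 genes of the group were called.

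Hemichannels and ATP receptors pass on mechanical signals through released ATP. Of 9 tested, 3 were called higher and none lower, with a median of 0.31. Gja1, connexin 43 and the most abundant of the group, rose from 141 ± 15.96 to 321 ± 52.2 CPM, or 2.30-fold (FDR 1.11e-05). Gjc1, connexin 45, rose 2.88-fold (FDR 2.86e-06). Panx3, a pannexin of cartilage and bone, was called at 1.67-fold (FDR 0.0388), with libraries of the groups overlapping. With 1 library left out the group had 2 or 3 calls.

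The remaining groups showed fewer calls. Of 21 genes for calcium entry, release and removal, Slc8a1, the sodium-calcium exchanger, was the 1 gene called higher, 2.06-fold (FDR 6.93e-06), and none was called lower. Atp2a1, the calcium pump of fast muscle with the highest naïve TPM of the group, had 1658 ± 693 CPM in naïve and 1214 ± 483 CPM in day 7 injured libraries. Of 9 other two-pore potassium channels, Kcnk1 was called higher at 1.83-fold (FDR 0.0218), with 91 counts at most in a library and no call without day 7 injured replicate 1 or 2, and Kcnk6, the most abundant by TPM, differed by 1.28-fold. Among 12 other channels linked to stretch, swelling or acid, none was called by edgeR, DESeq2 or limma-voom, and 4 passed the FDR limit alone, all with higher levels. Tmem63a, of the OSCA and TMEM63 family and the most abundant by TPM, differed by 1.22-fold.

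Against day 7 contralateral cartilage, 18 of the 97 genes tested were called as well, 14 higher and 4 lower. This was 18.6%, beside 12.6% of all genes called in either direction. Of these genes, 13 were called against both groups. The genes called against naïve alone were Kcnk1 (log2 0.19 against day 7 contralateral, FDR 0.745), Panx3 (0.56, FDR 0.208), Mdfic (0.53, FDR 0.0262), Calm2 (0.44, FDR 0.00116) and Rcan3 (0.49, FDR 0.0208). Those called against day 7 contralateral alone were Tmem63b (0.66), Lrrc8a (0.62) and Nfatc1 (0.69), which were higher, and Kcnk12 (-1.02) and Atp2a3 (-0.77), which were lower. Without day 7 contralateral replicate 1, 4 of these 5 calls were lost, and Tmem63b kept its call at a log2 difference of 0.62 (FDR 0.0255). Lrrc8a (0.51, FDR 0.00953), Nfatc1 (0.49, FDR 0.0122) and Atp2a3 (-0.53, FDR 0.00632) still passed the FDR limit but not the fold limit. Kcnk12 (-0.49, FDR 0.181) passed neither. In that fit 17 genes were called, of which 14 were also called against naïve. Calls gained there were Mdfic (0.60, FDR 0.0306), Trpm5 (1.63, FDR 0.00994, at most 28 counts in a library) and, lower, Pacsin1 (-0.83, FDR 0.0206). Kcnk1 was at 0.53 without a call (FDR 0.318).

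**Figure D4:**
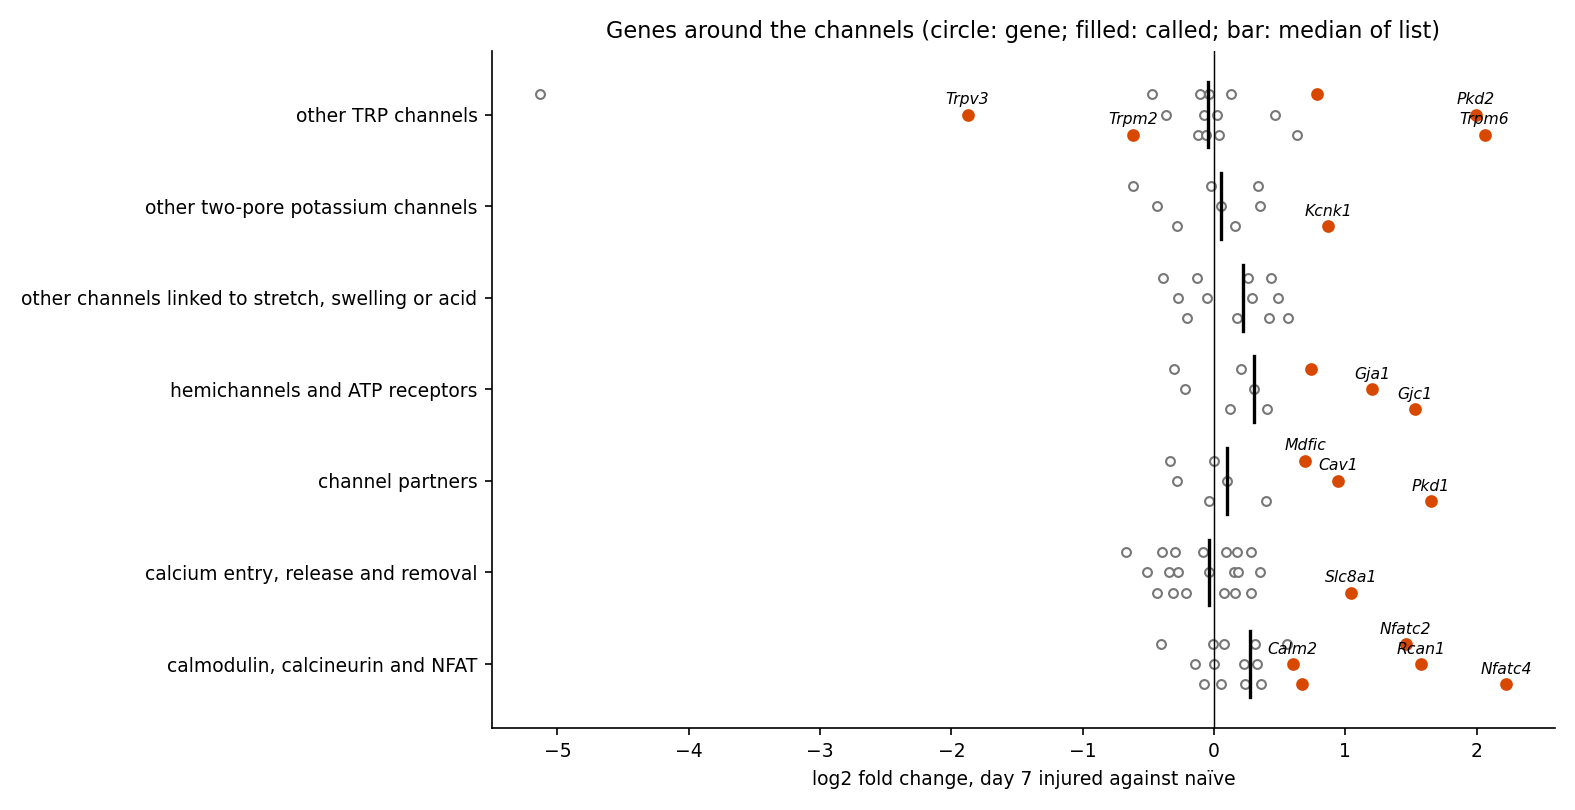
Log2 fold change in day 7 injured against naïve cartilage of each tested gene in the 7 groups; filled circles are called, black bars are medians, and vertical offsets within a group only separate the points. The open circle at the far left is Trpc2, which had at most 19 counts in any library.

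Some markers of other cell types were higher in day 7 injured cartilage, as were Piezo1, Piezo2 and Trpc1. Of 10 fibroblast markers, 7 were called higher against naïve and none lower. Their summed level was 72441, 75941 and 83407 CPM in day 7 injured libraries and ranged from 10711 to 18410 in naïve libraries, 8315 to 10401 in day 1 contralateral, 12915 to 22437 in day 1 injured and 17102 to 56623 in day 7 contralateral libraries. The most abundant of them was Col1a1, and Postn, periostin, rose 19.6-fold. The highest value outside the day 7 injured group belonged to day 7 contralateral replicate 1. In that group Col1a1 reached 52440 CPM, while Col3a1 did not exceed 3732 CPM and Postn 117 CPM, against at least 21686 and 2087 CPM in day 7 injured libraries. Of 5 pericyte and smooth muscle markers 3 were called higher, with Rgs5 the most abundant, and the summed level was 396 ± 55.1 CPM in naïve and 734 ± 90.1 CPM in day 7 injured libraries. Of 10 endothelial markers 5 were called higher, and the sum was 590 ± 39.8 CPM in naïve and 713 ± 40.2 CPM in day 7 injured libraries. Vwf, the most abundant of them, was not among the 5 and had 255 ± 25.0 and 195 ± 10.8 CPM (0.775-fold, FDR 0.0271). No marker of these lists was at or under 3 counts in all libraries. The part of these cell types in the change of the channels was not tested.

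The chondrocyte markers themselves were mixed. Acan, Col11a1, Comp and Sox9 were called higher and Cytl1 lower, while Col2a1 was 1.19-fold its naïve level without passing the test. Their summed level was 7902, 9319 and 9839 CPM in day 7 injured and 4439 to 8166 CPM in naïve libraries. It was highest in day 7 contralateral replicate 1, at 13555 CPM, and was 4779 and 5732 CPM in the other libraries of that group.

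Because Piezo2 is abundant in sensory neurons, their markers were read as well. Of 6 sensory neuron markers Scn10a had 0 counts in every library and Calca at most 4, and only Prph was abundant enough to test, at 1.16 ± 0.392 CPM in day 7 injured and 0.230 ± 0.126 CPM in naïve libraries (called higher). The summed level of all 6 was 1.71, 2.63 and 2.96 CPM in day 7 injured libraries and the highest of the other libraries had 1.00 CPM. The 7 Schwann cell markers, led by Mbp, summed to 70.9 ± 6.03 CPM in day 7 injured and 81.8 ± 8.71 CPM in naïve libraries, and none of the 6 tested was called.

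**Figure D5:**
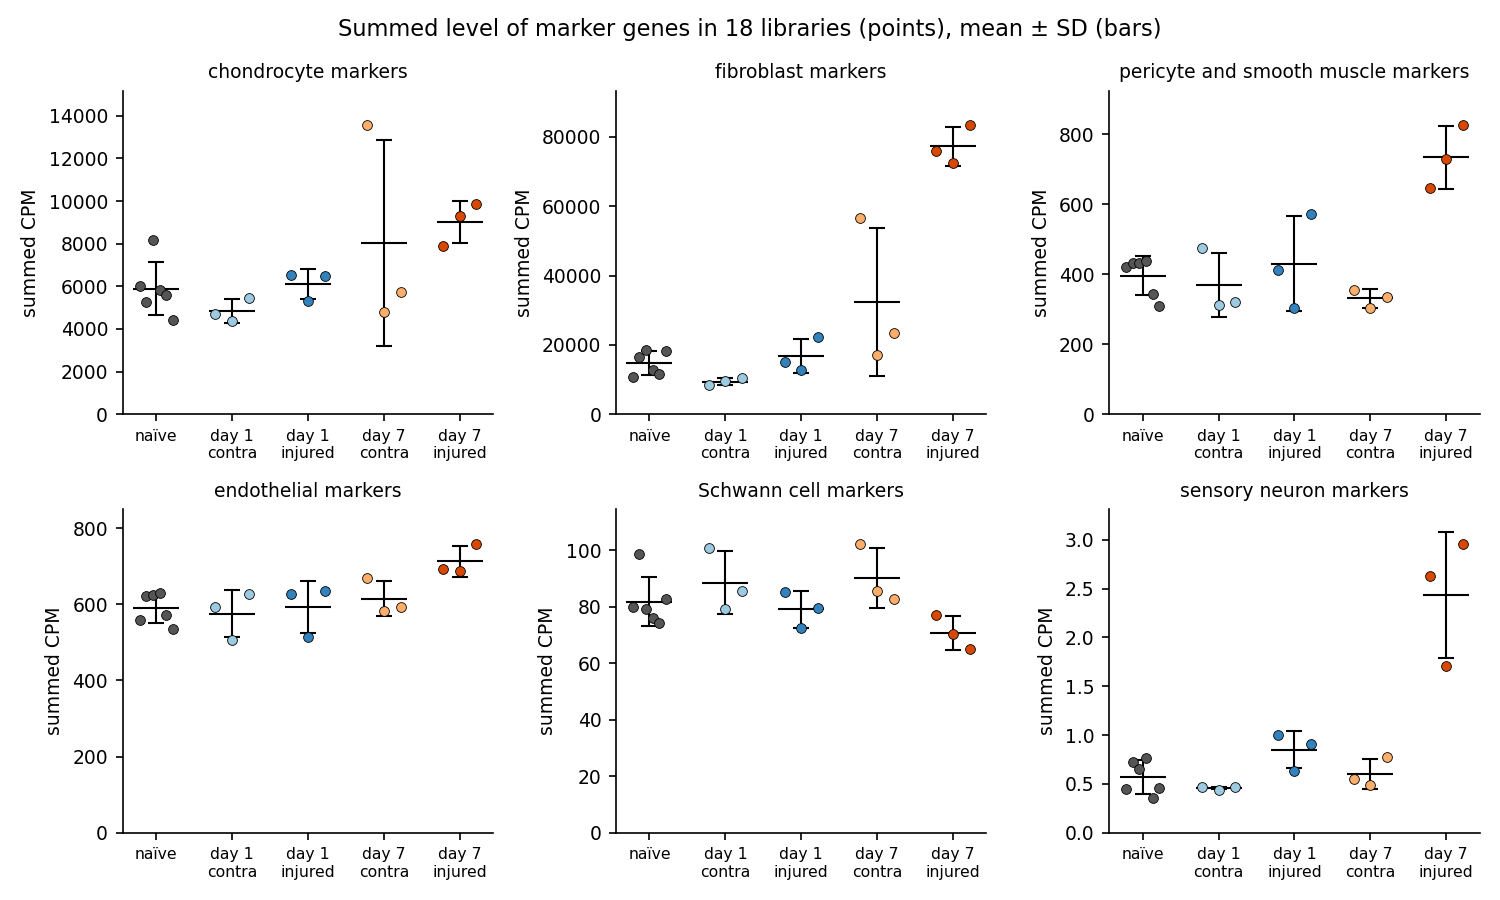
Summed CPM of the marker genes of 6 cell types in the 18 libraries, by group, with mean and SD; axes start at 0 and differ between panels. The fibroblast sum is 72441 CPM or higher in every day 7 injured library, and the sensory neuron sum does not exceed 2.96 CPM in any library.

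The markers of blood and muscle did not share this direction. Of 9 erythroid markers, led by Hbb-bs, 5 were called lower in day 7 injured than in naïve cartilage, and the sum was 22617 ± 5472 against 34649 ± 3951 CPM. Of 8 neutrophil markers, led by Ngp, 2 were called lower, and of 4 adipocyte markers, led by Cfd, 2. Of 10 skeletal muscle markers, led by Myh4, 1 was called lower. None of 9 macrophage markers, led by Lyz2, and none of 5 markers of proliferating cells, led by Mki67, was called by edgeR, although 3 macrophage markers were higher and 1 lower, and 3 proliferation markers lower, by the FDR limit alone. Of 9 osteoblast and osteocyte markers, led by Ibsp, 1 was called higher and 2 lower, and of 7 osteoclast markers, led by Mmp9, 1 was called higher.

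The genes most like each channel were read from Pearson's correlation of log2 CPM over the 18 libraries, which share the contrast between the day 7 injured and the other libraries. For Piezo2 they were Mest, an imprinted mesodermal gene (r = 0.99), Tubb2b, a tubulin (0.99), and Thbs2, thrombospondin 2 of the matrix (0.99). Without the 3 day 7 injured libraries these values were 0.70, 0.56 and 0.67, so the likeness rested largely on that group. Mest went from 4.91 ± 1.16 CPM in naïve to 136 ± 37.8 CPM in day 7 injured libraries and Thbs2 from 81.4 ± 17.4 to 1198 ± 223 CPM. For Piezo1 they were Kdelr2, a receptor that returns proteins to the endoplasmic reticulum (0.98), Tsku, a small secreted proteoglycan (0.98), and Txndc5, a disulfide isomerase (0.98), with 0.94, 0.92 and 0.91 over the other 15 libraries.

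For Trpc1 they were Fxyd6, Tspan3 and Man1a (each 0.95), with 0.81, 0.81 and 0.87 over the other 15 libraries. For Trpv4 they were Lama5, a laminin chain (0.92), Trpm4 (0.91) and Csrnp2 (0.90), with 0.92, 0.86 and 0.82. For Trpm7 they were Atf7, Glt8d1 and Serinc1 (each 0.94), with 0.82, 0.81 and 0.81. For Kcnk2, which did not follow the injury, Zfp652 (0.85) and Ntrk2 (0.83) were among them, and the values over the other 15 libraries were 0.86 and 0.83.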

How the data were processed

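The libraries were made from ribosome-depleted total RNA with a stranded kit. The authors trimmed the reads with Trimmomatic, pseudo-aligned them with kallisto to the GRCm38 transcriptome and deposited 1 file per library (the labels name GRCh38, a human build, among the genomes). The estimated counts per transcript, as deposited by the authors, are not normalized, and the deposited TPM scale them by the effective length, also deposited by the authors, and by the library total. The authors set aside 1 library of the ACL rupture experiment for a low mapping rate. The sources used here do not name it, and it may be among the 18 libraries, all of which were used.

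Each file held 137436 transcripts, of which 135107 (98.3%) matched the GENCODE annotation of GRCm38 by identifier without version. Only 37 carried the same version, so coordinates are those of the annotation used here. The unmatched transcripts held 0.667% to 3.90% of counts. Estimated counts were summed per gene and rounded, and TPM were summed per gene. edgeR 4.0.16 in R 4.3.3 was used with TMM normalisation, its filter on low counts, a mean per group and the quasi-likelihood test, with Benjamini-Hochberg adjustment over all genes tested. Comparisons that do not involve the day 7 contralateral group were fitted on 15 libraries without it, and the others on 18. Alternatives were DESeq2 1.42.0, limma 3.58.1 (voom), other scaling, filters and limits, protein-coding transcripts alone, a length offset, other libraries in the fit, and leaving out each library. Intervals and counts cover counting error and the spread between pools.

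The channels, the gene groups and the markers were chosen with earlier results of these data known. The rule for named genes takes all 6 channels, the 3 genes of each group with the largest change among those called against naïve whose groups did not overlap, the gene with the highest naïve TPM, and the 3 genes most correlated with each channel. A gene among those most like Kcnk2 and a marker are not reported here. Other genes named in groups (Trpm4, Trpm5, Panx3, Rcan3, Trpc2, Tmem63b, Lrrc8a, Atp2a3, Kcnk12, Nfatc1, Pacsin1) and single markers were chosen after their values were seen. Promoter stretches are from RefSeq (GRCm38.p6), in which 5 of the 6 channels matched. Piezo2 did not. Replicates are numbered in the order of deposition, which pairs nothing.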

Additional observations from a re-analysis of the deposited data

Results flagged for a closer look

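The injury effect on Piezo2 differed between the days. Injured minus contralateral at day 7 exceeded the same difference at day 1 by 3.34 on the log2 scale (SE 0.25, edgeR interaction term, FDR 1.04e-06). Piezo2 was higher in 3 of 3 day 7 injured libraries than in all contralateral libraries, whereas the day 1 injured and day 1 contralateral ranges overlapped. No naïve library lay far enough from its group to be singled out by Dixon's test for any of the 6 channels (6 tests, 1 for each channel, critical value 0.625).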

How the results depend on the processing

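No paired analysis was possible because the labels carry no replicate numbers and do not say which libraries share mice. Of 1647 values recomputed under alternatives, 1569 kept their direction and side of the threshold, or for counts stayed within 1.5 times. The calls of Piezo1, Piezo2 and Trpc1 in day 7 injured against naïve and day 7 contralateral cartilage were among them under every alternative to the scaling, filter, tool, transcripts or libraries. Depth limits genes of few counts, such as Trpv3 (at most 12 in a library), Trpc2 (19) and Kcnk1 (91), and Trpc1 among the channels.

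Without the fold limit, 5 channels differed from naïve, and the counts were 2 higher two-pore channels, 4 higher stretch, swelling or acid channels, 5 higher and 1 lower hemichannels and ATP receptors, 1 lower partner, 4 higher and 1 lower calcium genes, and 10 higher calmodulin, calcineurin and NFAT genes. With both limits, that last group had 3 called genes over protein-coding transcripts. With a length offset 1 calcium gene was lower. TRP channels called lower numbered 1 without a filter, with DESeq2, with a length offset or at an FDR of 0.01, and 0 to 3 with a library left out (0 without naïve replicate 1 or day 7 injured replicate 2). At an FDR of 0.01, 0 two-pore channels were higher, and 0 to 1 with a library left out (0 without day 7 injured replicate 1 or 2). Stretch, swelling or acid channels called higher numbered 0 to 2 with a library left out (1 without naïve replicate 3 or day 7 injured replicate 1, and 2 without day 7 injured replicate 2). For the difference between days, 2 channels were called with DESeq2, and 1 to 2 with a library left out (2 without naïve replicate 5).

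Reversed signs were limited to differences that were not called, and the cause was not tested. Over protein-coding transcripts the log2 differences of Kcnk2 were -0.0358 (day 7 injured against naïve), 0.0686 (against day 7 contralateral), 0.259 (against day 1 injured), -0.2948 (day 1 injured against naïve), -0.2717 (against day 1 contralateral), -0.1023 (day 7 contralateral against naïve) and 0.3378 (difference between days). In day 7 contralateral against naïve they were -0.0168 for Trpv4 and -0.169 for Trpc1. With a length offset, Kcnk2 was 0.058 (day 7 against day 1 injured) and 0.0029 (day 1 contralateral against naïve), Trpv4 was -0.1168 for the difference between days, and day 1 contralateral against naïve was -0.0063 for Piezo1 and 0.0071 for Trpm7. Piezo1 in day 7 contralateral against naïve was 0.0156 with DESeq2 size factors, 0.0041 without a filter, 0.0155 with DESeq2, 0.0078 with limma-voom and 0.0641 with a length offset. With limma-voom, Trpv4 in the same comparison was -0.0063, and Piezo1 in day 1 contralateral against naïve was -0.004.

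With a library left out, Kcnk2 ranged from -0.0577 to 0.0832 (day 7 injured against naïve), -0.2838 to 0.0268 (against day 1 injured) and -0.0114 to 0.2992 (day 1 injured against naïve). In day 7 contralateral against naïve the ranges were -0.0435 to 0.0748 for Piezo1, -0.1501 to 0.1576 for Trpv4, -0.0614 to 0.0069 for Trpm7 and -0.1479 to 0.2007 for Trpc1. In day 1 contralateral against naïve they were -0.1988 to 0.1254 for Piezo1 and -0.0311 to 0.0175 for Trpm7, and for the difference between days of Trpv4 -0.0504 to 0.28.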
